A study of Mus musculus with 6 samples.

Results

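Genes of vascular endothelium were examined in the pineal gland of newborn mice that lack Neurod1, which encodes a transcription factor that acts in the differentiation of neurons. The set held 32 genes, chosen by name as markers and regulators of endothelial cells, among 18193 genes that the array annotation names. A gene was read from its probe set of highest mean over the 6 arrays, among probe sets assigned to exactly 1 gene. Of the 32 genes, 30 had such a probe set and 28 were bright enough to be tested, of 12797 genes tested in all. The 2 dim genes were Mfsd2a and Rasip1. Ly6c1 shared its probe set with Ly6c2, and Ly6a was not analysed here.

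The animals were homozygous Neurod1 knockout mice on a 129 background and wildtype 129 mice, all at postnatal day 0 and housed in a light-dark cycle, with glands taken by day. Each genotype had 3 pools of 3 glands, and each pool was run on 1 Affymetrix array. The labels speak both of transgenic and of knockout animals, and name neither the deleted part of the gene nor any cell type that the deletion is limited to. Pools of the same number in the 2 genotypes carry the same date in the labels, so differences are also given within numbers 1, 2 and 3.

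Endothelial cells line all blood vessels. Vascular endothelial growth factor (VEGF) receptors and the angiopoietin receptor Tie2 drive their growth and stability, ETS-family and Sox-family factors maintain their identity, and cadherin and claudin junctions hold them together. In most of the brain these cells form the blood-brain barrier, with tight junctions built on claudin-5, the glucose transporter Glut1 and efflux pumps. The pineal gland is a circumventricular organ whose capillaries are more permeable in the adult, and the diaphragms of fenestrated capillaries are built from the protein encoded by Plvap. Choroid plexus, which lies near the gland, also has fenestrated capillaries.

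Neurod1 separated the genotypes and followed the labels. Its signal was 390.2, 524 and 122.5 in the knockout pools and 9027, 9301 and 7519 in the wildtype pools, a log2 difference of −4.67 (SE 0.45, limma adjusted p = 0.0362). It was the 1 gene called among 12797, and the call was lost when knockout pool 1 or any 1 wildtype pool was left out. Median signals per array lay between 132 and 184. Of 11 pinealocyte markers 10 were tested, with summed signals of 24547 to 45398 in knockout pools and 37437 to 57588 in wildtype pools, so the labelled tissue was present in every pool. Of the pan-endothelial markers, Cdh5, Pecam1, Kdr, Tek, Esam and Emcn had a tested probe set, one whose mean passed the filter for dim signals. Cdh5, Kdr, Tek, Esam and Emcn had signals of 227.5 or more in every pool. Pecam1 was dimmer, at 50.6 in knockout pool 3 and 81.5 in wildtype pool 3. In whole glands, a change in the number of endothelial cells and a change in RNA per endothelial cell cannot be told apart.

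None of the 28 endothelial genes passed the test between knockout and wildtype glands. In limma, 0 of 28 had an adjusted p under 0.05, where 0.00781% of all genes did, and the smallest adjusted p was 0.998. Log2 differences, taken between means of log2 values, were positive for 25 of the 28, as for 53.2% of all genes. They were negative for 3, namely Kdr, Sox17 and Sox18. The split became 19 higher and 9 lower when wildtype pool 3 was left out, where 51.1% of all genes were higher. It became 20 higher and 8 lower when knockout pool 2 was left out, where 53.8% of all genes were higher. The median log2 difference was 0.23, against 0.03 over all tested genes. With each array centred on its own median the split was 21 higher and 7 lower, where 37.7% of all genes were higher. The endothelial median was then 0.09 and the median over all genes −0.11. Centring shifts all genes of an array alike, so the distance between the 2 medians, 0.20, is the same under both scalings by construction.

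All 3 knockout pools lay above all 3 wildtype pools for 5 of the 28 genes, Robo4, Vwf, Abcb1a, Slc2a1 and Emcn, and below them for 0. That is 17.9% of the tested endothelial genes, and over all genes the shares were 5.77% with knockout higher and 4.33% with knockout lower. With arrays centred on their medians Robo4 and Abcb1a alone remained of these 5, and the share over all genes was 3.33%. An unadjusted p under 0.05 was reached by 3 endothelial genes with higher knockout means, Robo4, Vwf and Abcb1a, and by 0 with lower means. Over all genes the shares in this fit were 1.98% and 1.37%, or 3.34% in either direction. The endothelial count was 0 with arrays centred on their medians, 2 with the mean of probe sets or no variance trend, and 15 with array weights. With 1 pool left out it was 0 without wildtype pool 2 and 1 without knockout pool 2, knockout pool 3 or wildtype pool 3. It was 4 without wildtype pool 1 and 6 without knockout pool 1. Shares over all genes are not given for these other fits. With the pool number as a block the count was again 3 higher and 0 lower, and the shares over all genes were 3.08% and 3.16%, or 6.24% in either direction. Within all 3 pool numbers 10 of the 28 genes were higher in knockout, or 35.7%, and 0 were lower, and over all genes these shares were 14.9% and 15.4%.

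**Figure D1:**
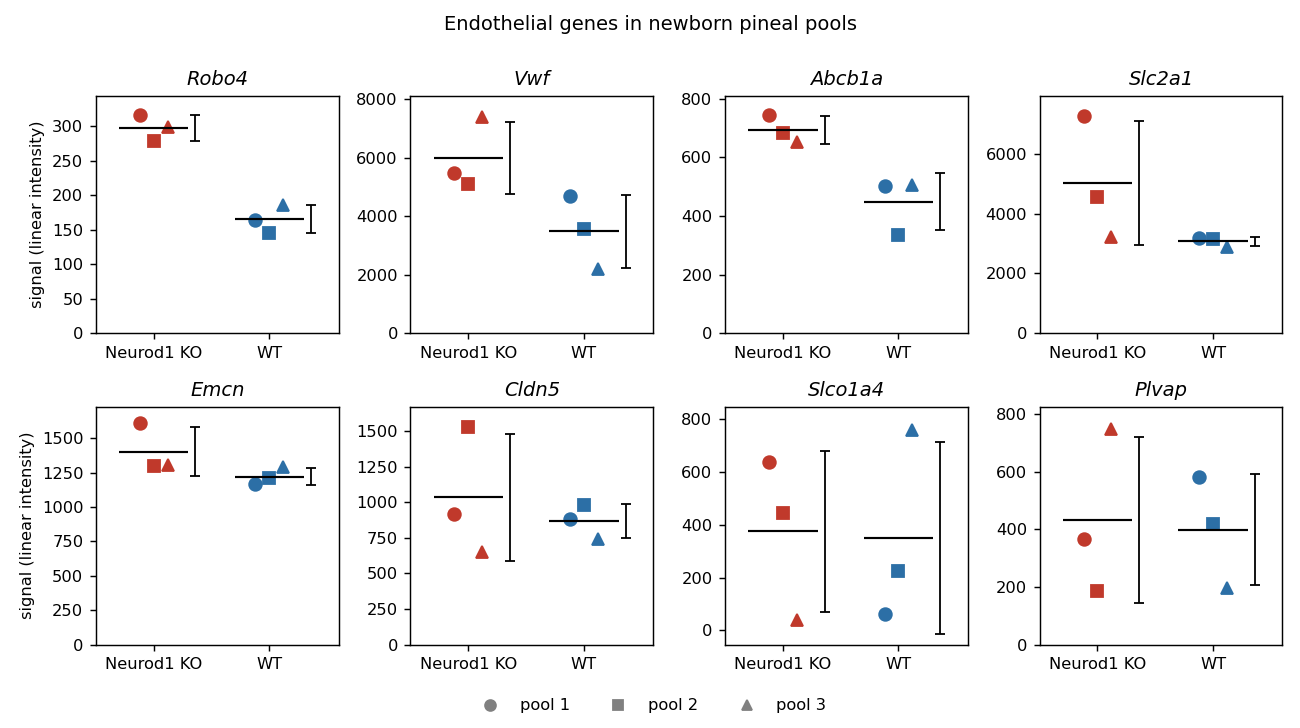
Signal (linear intensity) of 8 endothelial genes in each pool, Neurod1 knockout left in red and wildtype right in blue, with the symbol giving the pool number. Lines are means and bars are SDs of 3 pools. The genotypes separate for the first 5 genes, narrowly so for Slc2a1 and Emcn, and overlap for Cldn5, Slco1a4 and Plvap.

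The promoters of 4 of these 5 genes are shown because ETS factors, of which Erg and Fli1 are members of the set, read a GGAA core. Windows of 250 bases before to 50 after the start were taken from RefSeq (GRCm38.p6), in which 18 of the 32 genes were matched. Each is given 5′ to 3′ on the strand of the gene, with AGGAAG or its reverse complement CTTCCT in capitals.
Robo4, chr9:37401722-37402021, plus strand: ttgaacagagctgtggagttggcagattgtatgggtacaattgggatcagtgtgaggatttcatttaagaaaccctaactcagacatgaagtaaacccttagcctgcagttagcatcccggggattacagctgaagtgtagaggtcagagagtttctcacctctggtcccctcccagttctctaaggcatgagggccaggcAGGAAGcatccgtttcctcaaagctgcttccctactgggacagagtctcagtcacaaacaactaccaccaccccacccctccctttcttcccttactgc
Abcb1a, chr5:8566841-8567140, plus strand: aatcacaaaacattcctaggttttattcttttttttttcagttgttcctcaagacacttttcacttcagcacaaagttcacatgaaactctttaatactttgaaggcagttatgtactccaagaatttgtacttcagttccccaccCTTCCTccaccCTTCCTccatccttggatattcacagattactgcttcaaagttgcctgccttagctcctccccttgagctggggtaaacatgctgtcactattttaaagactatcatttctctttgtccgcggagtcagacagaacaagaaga
Emcn, chr3:137340828-137341127, plus strand: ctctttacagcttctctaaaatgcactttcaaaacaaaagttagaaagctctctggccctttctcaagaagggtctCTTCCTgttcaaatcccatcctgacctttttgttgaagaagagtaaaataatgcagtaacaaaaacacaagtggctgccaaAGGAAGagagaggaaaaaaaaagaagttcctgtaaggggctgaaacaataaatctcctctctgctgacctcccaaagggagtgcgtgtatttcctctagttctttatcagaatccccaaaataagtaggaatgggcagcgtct
Slc2a1, chr4:119108495-119108794, plus strand: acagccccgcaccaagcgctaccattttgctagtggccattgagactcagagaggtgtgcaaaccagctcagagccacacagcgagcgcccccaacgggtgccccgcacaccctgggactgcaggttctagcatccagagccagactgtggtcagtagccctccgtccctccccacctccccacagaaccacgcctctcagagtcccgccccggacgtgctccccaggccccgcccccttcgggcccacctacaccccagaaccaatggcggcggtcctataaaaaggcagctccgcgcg

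The letters AGGAAG or CTTCCT occurred 1 time in the Robo4 window, 2 times in those of Abcb1a and Emcn, and 0 times in that of Slc2a1, as in those of Cldn5, Kdr and Erg among others. Searched on both strands with overlaps counted, they were found in 10 of 18 endothelial windows (55.6%) and in 35.1% of the 27025 windows of all genes. The Sox core ACAAT, or ATTGT, was in 5 of the 18 (27.8%) and in 31.6% of all windows. These matches describe the letters of the windows, not binding. AGGAAG is longer than the GGAA core, so a window without a match can still hold GGAA, as that of Kdr does.

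Genes of vessel guidance, tone and clotting had the highest group median. All 5 tested members had higher knockout means, with a median log2 difference of 0.54 and a range of 0.20 to 0.83. Robo4, an endothelial receptor of the Roundabout family that stabilises vessels, had signals of 316, 278 and 298 in knockout pools, against 164, 145.5 and 186.5 in wildtype pools. The 2 genotypes did not overlap, and the lowest knockout pool stood well clear of the highest wildtype pool. Robo4 averaged 297 ± 19.0 in knockout and 165 ± 20.5 in wildtype (SD, n = 3 each), a ratio of means of 1.80. Its log2 difference was 0.72 (SE 0.26, limma unadjusted p = 0.0213, adjusted p = 0.998). Within numbers 1, 2 and 3 it was 0.81, 0.78 and 0.58, and it stayed between 0.65 and 0.80 when pools were left out, the narrowest such range of the 28 genes. Robo4 was dim, and a stricter filter, at a signal of about 232, left it out.

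Vwf encodes von Willebrand factor, the clotting protein stored in endothelial cells and platelets. It had signals of 5473, 5121 and 7409.5 in knockout pools and 4681, 3584 and 2188 in wildtype pools. The genotypes did not overlap, although knockout pool 2 and wildtype pool 1 were close. Vwf averaged 6001 ± 1232 in knockout and 3484 ± 1250 in wildtype (SD, n = 3 each). The log2 difference was 0.83 (SE 0.36, limma unadjusted p = 0.0484, adjusted p = 0.998), and it was 0.22, 0.51 and 1.74 within numbers 1, 2 and 3. Pools numbered 3 carried much of it: the difference was 0.53 without wildtype pool 3 and 0.37 without both pools of that number. Since platelets also hold Vwf, platelet markers are given beside it. Of 7 platelet markers 4 were tested, 3 of them higher in knockout by mean, with summed signals of 992 to 1365 in knockout pools and 761 to 884 in wildtype pools. Ppbp, a chemokine gene of platelets, had 511, 308 and 440.4 in knockout and 203, 260 and 249 in wildtype. Their part in the Vwf values was not tested.

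The other members of this group overlapped between genotypes. Nos3, the endothelial nitric oxide synthase gene, had 316, 318 and 359.6 in knockout and 324, 199 and 153 in wildtype, so that knockout pools were alike and wildtype pool 1 alone was as high. Its log2 difference was 0.54 (SE 0.30). Ramp2, whose product makes the calcitonin receptor-like receptor respond to adrenomedullin, averaged 1347 ± 412 in knockout and 961 ± 294 in wildtype, a log2 difference of 0.47 (SE 0.34). Egfl7, a secreted protein of vessel matrix, averaged 1298 ± 211 and 1116 ± 103 in the same order (SD, n = 3 each), a log2 difference of 0.20 (SE 0.27). Its other 3 probe sets gave 0.16, 0.52 and 0.19. Rasip1, needed for lumen formation, was below the filter, at 112, 80.2 and 17.5 in knockout and 72.8, 144 and 120.5 in wildtype.

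The VEGF receptors differed from each other in their order of pools. Kdr, the main signalling receptor for VEGF-A, had signals of 1984, 1976 and 991 in knockout pools and 4388, 1865 and 747 in wildtype pools. Its spread lay within the genotypes, since wildtype pools 1 and 3 differed more than any other pair. The log2 difference was −0.22 (SE 0.59), and 0.40 without wildtype pool 1. Flt1, a VEGF receptor that also acts as a decoy, had 1512, 5905 and 11247 in knockout and 3277, 4416 and 5096 in wildtype, so that knockout held both the highest and the lowest pool. Its log2 difference was 0.15 (SE 0.64), with −1.10, 0.42 and 1.14 within numbers 1, 2 and 3. Flt4, the receptor for VEGF-C, had 307, 175 and 227.5 in knockout and 187, 146 and 112 in wildtype, overlapping only through knockout pool 2 and wildtype pool 1 (log2 difference 0.55, SE 0.32). A second, dimmer Flt4 probe set overlapped, with a log2 difference of 0.10 that was 1.71, −0.31 and −1.11 within numbers 1, 2 and 3.

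Flt4 marks lymphatic as well as blood vessels. Of 4 lymphatic markers, 2 were tested, with summed signals of 7752 to 14114 in knockout pools and 6156 to 12893 in wildtype pools. Lyve1, a hyaluronan receptor gene that macrophages also express, averaged 1378 ± 510 and 1169 ± 326, and Pdpn, which meninges and choroid plexus also express, 9746 ± 3468 and 7834 ± 3771, in knockout and wildtype (SD, n = 3 each). Prox1, the defining lymphatic factor, was below the filter.

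Angiopoietin receptor genes and their phosphatase had higher knockout means, with ratios of means of 1.05 for Tek, 1.24 for Tie1 and 1.41 for Ptprb, and overlapped between genotypes. Tek, which encodes Tie2, had 1873, 2273 and 1662 in knockout and 2470, 1539 and 1544 in wildtype (log2 difference 0.09, SE 0.31), with the highest pool in wildtype. Tie1, its orphan partner, averaged 141 ± 80.5 in knockout and 114 ± 88.9 in wildtype (SD, n = 3 each), near the dimmest level tested, with the lowest value, 13.2, in wildtype pool 3. Ptprb encodes the phosphatase VE-PTP, which restrains Tie2 and the junction protein VE-cadherin. It had 1710.3, 5884 and 8107 in knockout and 3597, 3646 and 3892 in wildtype. The wildtype pools were close to each other and lay between knockout pool 1 and knockout pools 2 and 3 (log2 difference 0.23, SE 0.53).

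Junction and adhesion genes all had higher knockout means, with a median log2 difference of 0.29, and none of the 4 separated the genotypes. Cdh5, which encodes VE-cadherin, had 482, 376 and 379.5 in knockout and 382.5, 305 and 227.5 in wildtype. Wildtype pool 1 reached the lower knockout pools, and the log2 difference was 0.41 (SE 0.27), positive within each pool number at 0.30, 0.27 and 0.65. Esam, an adhesion molecule of endothelial tight junctions, had 746, 864 and 841 in knockout against 786, 599.7 and 493 in wildtype (log2 difference 0.39, SE 0.27). Pecam1, the platelet and endothelial adhesion molecule CD31, had 248, 375 and 50.6 in knockout and 349, 166 and 81.5 in wildtype. Both genotypes spanned a wide range, and the log2 difference was 0.05 (SE 0.62). Icam2, an adhesion molecule that leukocytes also carry, averaged 204 ± 66.6 and 173 ± 54.0 in knockout and wildtype (SD, n = 3 each; log2 difference 0.19, SE 0.35).

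Surface glycoproteins likewise had higher knockout means for all 4 tested members, with a median log2 difference of 0.32. Emcn, the endothelial sialomucin endomucin, had 1607, 1296 and 1304 in knockout and 1164, 1207 and 1291 in wildtype. The groups did not overlap, but knockout pool 2 and wildtype pool 3 were almost equal. Means were 1402 ± 178 in knockout and 1221 ± 64.6 in wildtype (SD, n = 3 each), and the log2 difference was 0.19 (SE 0.26, limma unadjusted p = 0.493). Cd93, a C-type lectin receptor of endothelium and myeloid cells, had 3516, 9260.1 and 8312 in knockout and 4344, 5393 and 3121 in wildtype. Knockout pools 2 and 3 exceeded all wildtype pools and knockout pool 1 did not (log2 difference 0.63, SE 0.43). A second Cd93 probe set gave 0.35 and the dimmest of the 3 gave −0.73. Cd34, a sialomucin of endothelium and blood progenitors, averaged 1693 ± 633 and 1254 ± 397, and Eng, the transforming growth factor β co-receptor endoglin, 363 ± 162 and 311 ± 153, in knockout and wildtype (SD, n = 3 each).

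The transcription factors split. Erg and Fli1, ETS factors of endothelial identity, had log2 differences of 0.40 (SE 0.41) and 0.21 (SE 0.48). Erg had 709, 447.5 and 241 in knockout and 508.5, 235 and 259.5 in wildtype, with knockout pool 3 among the low ones. Sox17 and Sox18, SoxF factors of arterial and lymphatic development, had −0.28 (SE 0.43) and −0.22 (SE 0.43). Fli1 had 3804, 10970.1 and 14148 in knockout and 6787, 6806 and 8211 in wildtype, the same arrangement as Flt1 and Ptprb, with knockout pool 1 lowest and knockout pool 3 highest of the 6. Knockout pool 1 was also lowest for Sox17, at 64.4, and for Sox18, at 68.8, whose other pools lay between 154 and 247 and between 164 and 307. A second, dimmer Sox17 probe set had a log2 difference of −0.00627. There knockout pool 1, at 123.9, lay above knockout pool 2, at 95.9, and wildtype pool 1, at 97. Without knockout pool 1 the differences were 0.19 and 0.24 for the SoxF pair, 0.78 for Fli1, 0.95 for Flt1 and 0.89 for Ptprb, whereas that of Erg was then 0.0573, and 0.77 without knockout pool 3.

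**Figure D2:**
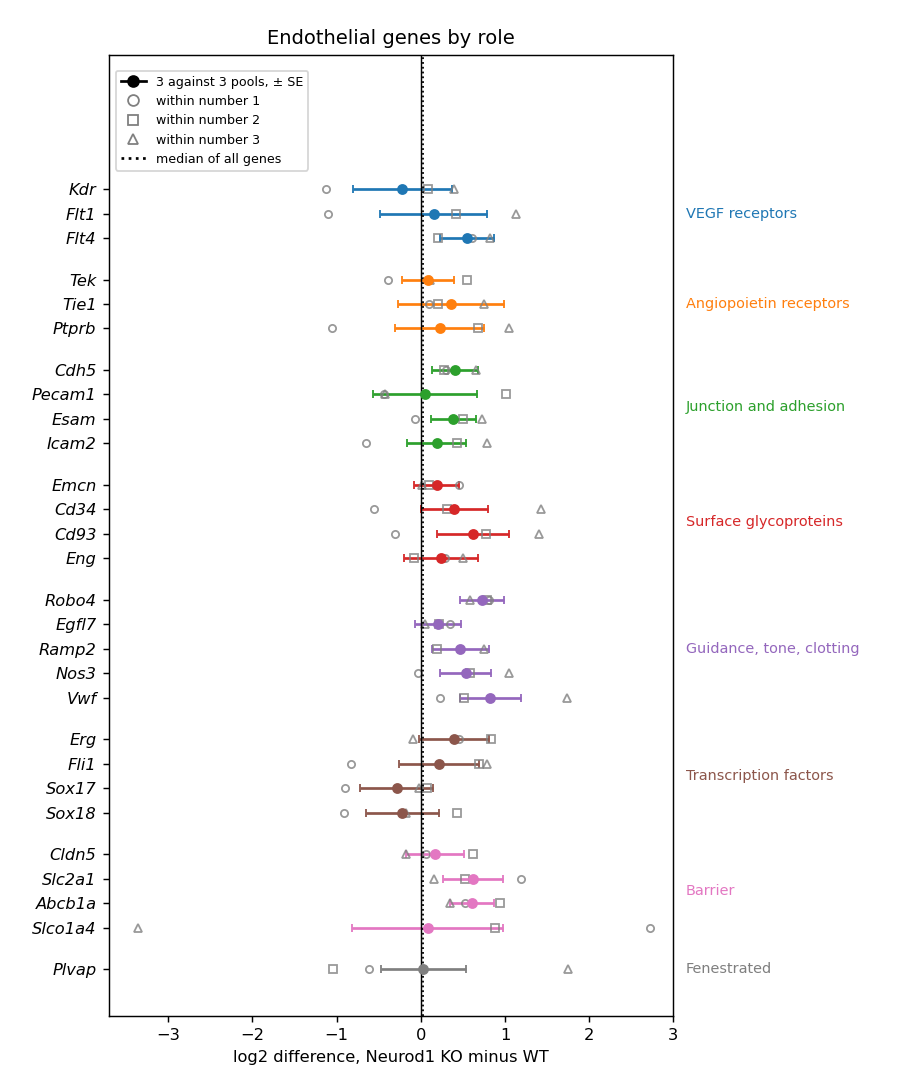
Log2 difference, Neurod1 knockout minus wildtype, of the 28 tested endothelial genes grouped by role. Filled circles are the fit over 3 against 3 pools with its standard error, open symbols are differences within each pool number, and the dotted line is the median of all genes at 0.03. Robo4 has the tightest open symbols, and Slco1a4 and Plvap the widest.

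Knockout pool 1 stood apart in other ways, which are given as values. Over 135 ribosomal and mitochondrial respiration genes, its median was 1.17 above the 6-pool mean on the log2 scale, against −0.63 to 0.09 in the other 5 pools. It held the lowest of the 6 values for 5 endothelial genes (17.9%) and the highest for 10 (35.7%), and over all genes these shares were 19.1% and 32.6%. Wildtype pool 3 held the lowest value for 14 of the 28 endothelial genes (50%, against 15.6% of all genes) and its median over the 28 was −0.47, the lowest of any pool. The corresponding medians were 0.22, 0.28 and 0.20 in knockout pools 1, 2 and 3, and 0.05 and −0.11 in wildtype pools 1 and 2. The 3 knockout pools were therefore alike in this measure while the wildtype pools were spread out. Summed signals of the 28 genes showed the reverse. They were 39735, 58512 and 66344 in knockout pools 1, 2 and 3, and 43634, 40080 and 35966 in wildtype pools. The median difference within numbers 1, 2 and 3 was 0.01, 0.47 and 0.62. Without both pools numbered 1 the median was 0.47, and 17 genes, all higher in knockout, did not overlap, where with 2 pools a genotype the share over all genes was 17.2%.

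**Figure D3:**
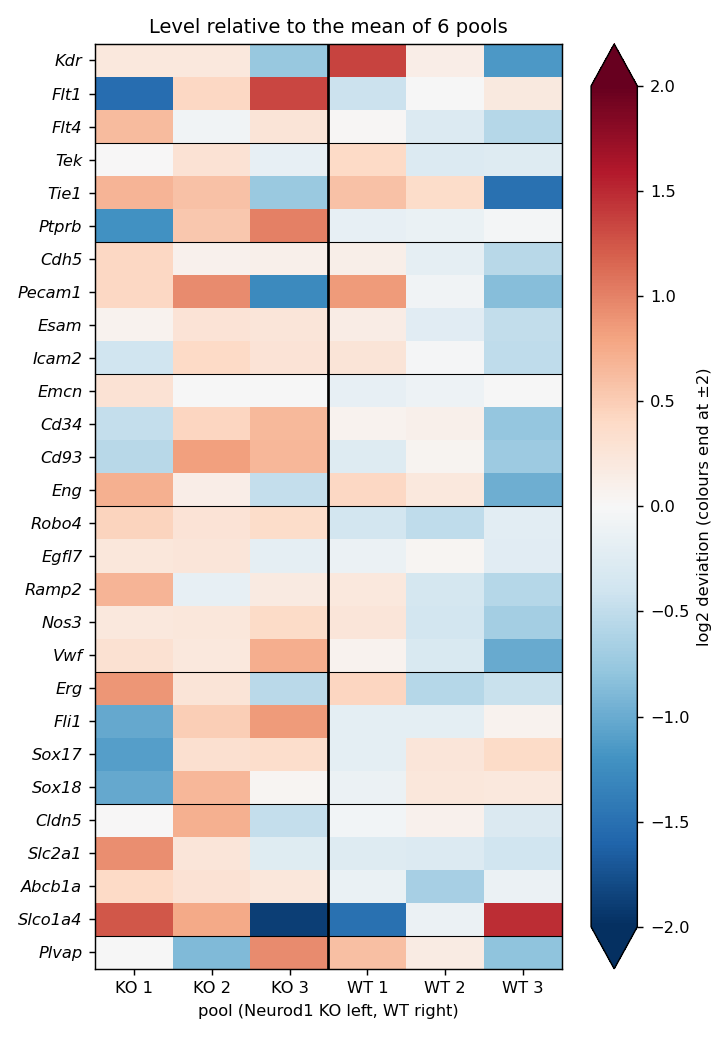
Level of each tested endothelial gene in each pool relative to its mean over 6 pools, on the log2 scale, with knockout pools left of the line and wildtype pools right. Blue cells in the column of wildtype pool 3 mark its low values, and Fli1, Flt1, Ptprb, Sox17 and Sox18 are lowest in knockout pool 1.

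Barrier genes are given apart from the gene of fenestrated vessels. Of 5 barrier genes 4 were tested, all 4 with higher knockout means, a median log2 difference of 0.39 and within-number medians of 0.86, 0.75 and −0.01. Abcb1a, the P-glycoprotein efflux pump of brain capillaries, had signals of 745, 683 and 652 in knockout pools and 504, 336 and 505 in wildtype pools. Every knockout pool exceeded every wildtype pool, with means of 693 ± 47.3 and 448.5 ± 97.3 (SD, n = 3 each) in that order. The log2 difference was 0.61 (SE 0.26, limma unadjusted p = 0.0458, adjusted p = 0.998), with 0.53, 0.95 and 0.34 within numbers. Its second, dimmer probe set had a log2 difference of 0.20, with −0.82 within number 1.

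Slc2a1 encodes the glucose transporter Glut1, which barrier endothelium shares with red cells and, at lower levels, with glia. It had 7275.5, 4540.5 and 3223 in knockout pools and 3178, 3151 and 2881 in wildtype pools. Wildtype pools were tightly grouped and the knockout pools fanned out above them, with knockout pool 3 only just clear. Means were 5013 ± 2067 in knockout and 3070 ± 164 in wildtype (SD, n = 3 each). The log2 difference was 0.62 (SE 0.35, limma unadjusted p = 0.112) and was 0.32 without knockout pool 1, and its other 2 probe sets gave 0.50 and 0.43. In the dimmest of the 3 probe sets knockout pool 3, at 910.2, lay below wildtype pool 3, at 965, so the separation did not hold there. Astroglial markers had positive log2 differences for 5 of 7 tested (median 0.40). Their sums were 23368 to 34503 in knockout pools and 22190 to 23877 in wildtype pools, and their part in the Slc2a1 values was not tested.

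Cldn5, the claudin that seals brain endothelium, overlapped. It had 921, 1531 and 653 in knockout pools and 883, 982.5 and 745 in wildtype pools, a log2 difference of 0.17 (SE 0.34, limma unadjusted p = 0.640) that was −0.15 without knockout pool 2. Mfsd2a, a lipid transporter that limits vesicle traffic across the barrier, was below the filter, with 184, 14.9 and 7.7 in knockout and 64.4, 7.4 and 51.3 in wildtype.

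Plvap, whose product forms the diaphragms of fenestrae, had nearly equal means and widely spread pools. Its signals were 367, 184 and 749 in knockout and 581, 419.8 and 196 in wildtype, averaging 433 ± 288 and 399 ± 193 (SD, n = 3 each). The genotypes overlapped fully, and the log2 difference of 0.03 (SE 0.50, adjusted p = 0.999) was made of −0.61, −1.04 and 1.75 within numbers 1, 2 and 3. It was −0.43 without knockout pool 3, −0.36 without wildtype pool 3 and −0.11 with arrays centred on their medians. Subtracting the Plvap difference from that of Slc2a1 left 1.80, 1.56 and −1.59 within the 3 numbers, and for Cldn5 0.67, 1.66 and −1.93. The same Plvap values entered both, and Plvap was the 1 fenestrated gene tested. Before subtraction Slc2a1 was higher in knockout within all 3 numbers, at 1.19, 0.52 and 0.16, so its negative value in number 3 came from the Plvap values. Cldn5 had 0.06, 0.62 and −0.18, so it was negative in number 3 before subtraction too, and subtracting Plvap enlarged this.

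Slco1a4, an organic anion transporter of barrier endothelium, spread most of all 28 genes. Its signals were 638.5, 446 and 39.3 in knockout and 63.6, 225 and 759.8 in wildtype. Knockout pool 3 and wildtype pool 1 were the low ones, and the log2 difference of 0.08 (SE 0.90, limma unadjusted p = 0.929) joined 2.73, 0.88 and −3.36 within numbers 1, 2 and 3. Choroid plexus transcripts had the same 2 low pools. Ttr, the transthyretin gene of choroid plexus epithelium, had 87464, 58636.5 and 685 in knockout and 898, 38903 and 60484 in wildtype. For 7 of the 8 tested choroid plexus markers knockout pool 3 and wildtype pool 1 were the lowest pools, as they were for 5.74% of all genes. Folr1 and Sostdc1 ranked the 6 pools exactly as Slco1a4 did, and of all tested genes 21 did. Summed choroid plexus signals were 3105 to 98376 in knockout pools and 3397 to 78412.5 in wildtype pools. Slco1c1, a thyroid hormone transporter of barrier endothelium and choroid plexus, had 808, 630.2 and 21.7 in knockout and 147, 191 and 736 in wildtype, again low in knockout pool 3 and lowest in wildtype in pool 1.

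Plvap ran the other way, with its 2 highest values in knockout pool 3 and wildtype pool 1, the pools of low Ttr. Nos3 was the other endothelial gene with these 2 pools highest, as 2.77% of all genes were. Without these 2 pools the Plvap log2 difference was −0.12, that of Slco1a4 0.32, that of Cldn5 0.46, that of Slc2a1 0.92 and that of Abcb1a 0.74, in an alternative chosen after seeing the data that leaves 2 pools a genotype. The part of choroid plexus tissue in the spread of Slco1a4 and Plvap was not tested.

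**Figure D4:**
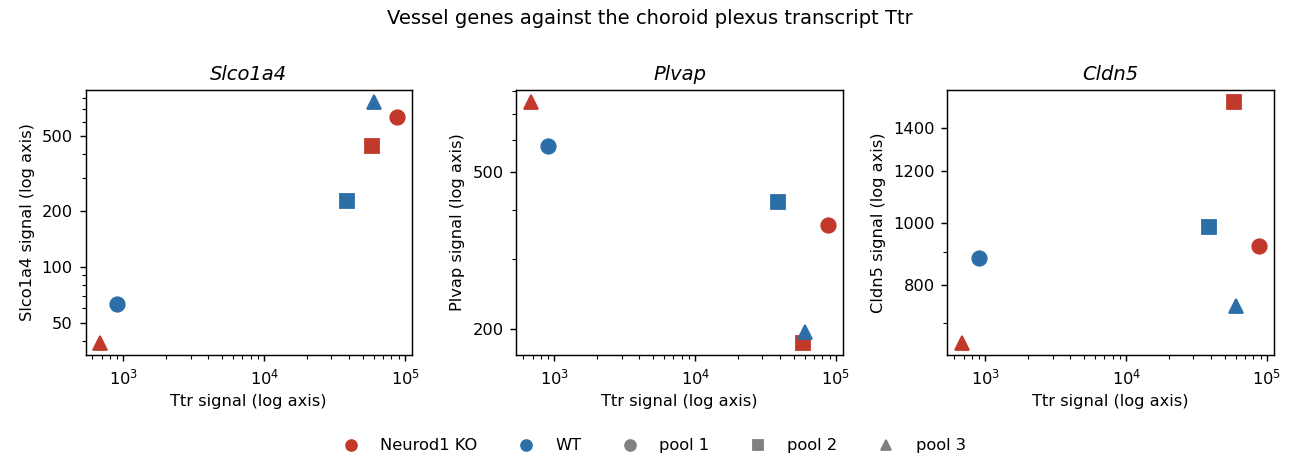
Signal of Slco1a4, Plvap and Cldn5 (log axis) against the signal of the choroid plexus transcript Ttr (log axis) in each of 6 pools, knockout red and wildtype blue, with the symbol giving the pool number. Knockout pool 3 and wildtype pool 1, at Ttr signals of 685 and 898, have the lowest Slco1a4 and the highest Plvap values.

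Probe sets of one gene did not always follow the same pools. Of the 28 genes, 10 had several probe sets past the filter, and in 1, Cd93, they had both signs. For Flt1, the brightest probe set had knockout pool 1 lowest, whereas the 3 dimmer ones had knockout pool 1 highest, at 700.0, 418 and 186, and log2 differences of 0.19, 0.21 and 0.30. In Ptprb, knockout pool 1 was the lowest knockout pool in all 3 probe sets, at 1710, 944 and 74.6, and the log2 differences were 0.23, 0.42 and 0.31. A level read from 1 probe set therefore depended on which one was taken for Flt1, and the log2 differences over the 4 lay between 0.15 and 0.30.

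Further vessel genes outside the set were taken from lists chosen with earlier results of these data known, and none passed the test. Of 34 other endothelial genes 30 were tested, 25 with higher and 5 with lower knockout means and a median log2 difference of 0.27. Adgrf5, an adhesion G protein-coupled receptor gene of endothelium, had 1647, 1678 and 1335.5 in knockout and 1141, 756 and 598 in wildtype. The groups did not overlap, and the log2 difference was 0.91 (SE 0.31, limma unadjusted p = 0.0169, adjusted p = 0.998). Of the 30 genes 4 separated the genotypes, all with knockout higher, where 5.77% of all genes did so. Mmrn2, a matrix protein that binds Cd93, and Lyl1, a helix-loop-helix factor of blood and vessels, also separated the genotypes with knockout higher, at log2 differences of 0.68 and 0.27.

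Among growth factor, angiopoietin, Notch, apelin and Wnt signalling genes, 27 of 32 were tested, 19 with positive and 8 with negative log2 differences (median 0.22). Vegfa, the main growth factor of vessels, averaged 503 ± 79.9 in knockout and 489 ± 31.9 in wildtype (SD, n = 3 each; log2 difference 0.03, SE 0.25). The 4 that separated the genotypes, all with knockout higher, where 5.77% of all genes did so, were the sphingosine-1-phosphate receptor gene S1pr1 (0.54, SE 0.24), the Notch ligand gene of vessel tip cells Dll4 (0.60, SE 0.28), the bone morphogenetic protein receptor gene Acvrl1 (0.52, SE 0.29) and Reck, a partner of the Wnt7 receptor complex (0.34, SE 0.29), all as log2 differences.

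Of 22 other barrier genes 18 were tested, 13 with positive and 5 with negative log2 differences (median 0.12). Axin2, a target gene of Wnt signalling in many cell types, had 514, 476 and 557 in knockout and 232, 272 and 372 in wildtype. Its genotypes did not overlap (log2 difference 0.77, SE 0.26, limma unadjusted p = 0.0166, adjusted p = 0.998). In all 4 of the 18 separated the genotypes with knockout higher, where 5.77% of all genes did. Spock2, a proteoglycan gene, separated them at 1.34 (SE 0.53), the barrier-associated factor gene Foxq1 at 0.66 and the efflux pump gene Abcg2 at 0.40. Slc3a2, the heavy chain of amino acid transporters, separated them with knockout lower, where 4.33% of all genes did so, at 803, 991.5 and 1121 in knockout against 1811, 1275 and 1320.5 in wildtype (log2 difference −0.57, SE 0.29). All 8 other genes of fenestrated or permeable vessels were tested, 6 with positive and 2 with negative log2 differences and a median of 0.10. Of these, 0 separated the genotypes, where 5.77% of all genes did so with knockout higher and 4.33% with knockout lower. The 2 with the smallest p were Cavin1 and Plpp1, at 0.36 (SE 0.36) and 0.27 (SE 0.31).

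Cell types that accompany vessels are given beside the endothelial values. Of 13 pericyte and smooth muscle markers 9 were tested, all 9 with higher knockout means (median 0.42), with summed signals of 16925 to 26173 in knockout pools and 13925 to 17025 in wildtype pools. Macrophage markers had positive log2 differences for 12 of 13 tested (median 0.43), with sums of 11028 to 14132 in knockout and 8659.8 to 9242.5 in wildtype. Red cell markers were lower for both that were tested of 10, Alas2 and Slc4a1 (median −0.55), with sums of 373 to 950.4 in knockout and 827 to 1165 in wildtype. Meningeal fibroblast markers had higher knockout means for 8 of 9 tested, with a median of 0.11. Pinealocyte markers had negative log2 differences for 9 of 10 (median −0.44). Wildtype pool 3, lowest for 14 endothelial genes, was also lowest for pericyte markers, with a median of −0.61 relative to the 6 pools. No cell type's part in the endothelial values was tested.

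**Figure D5:**
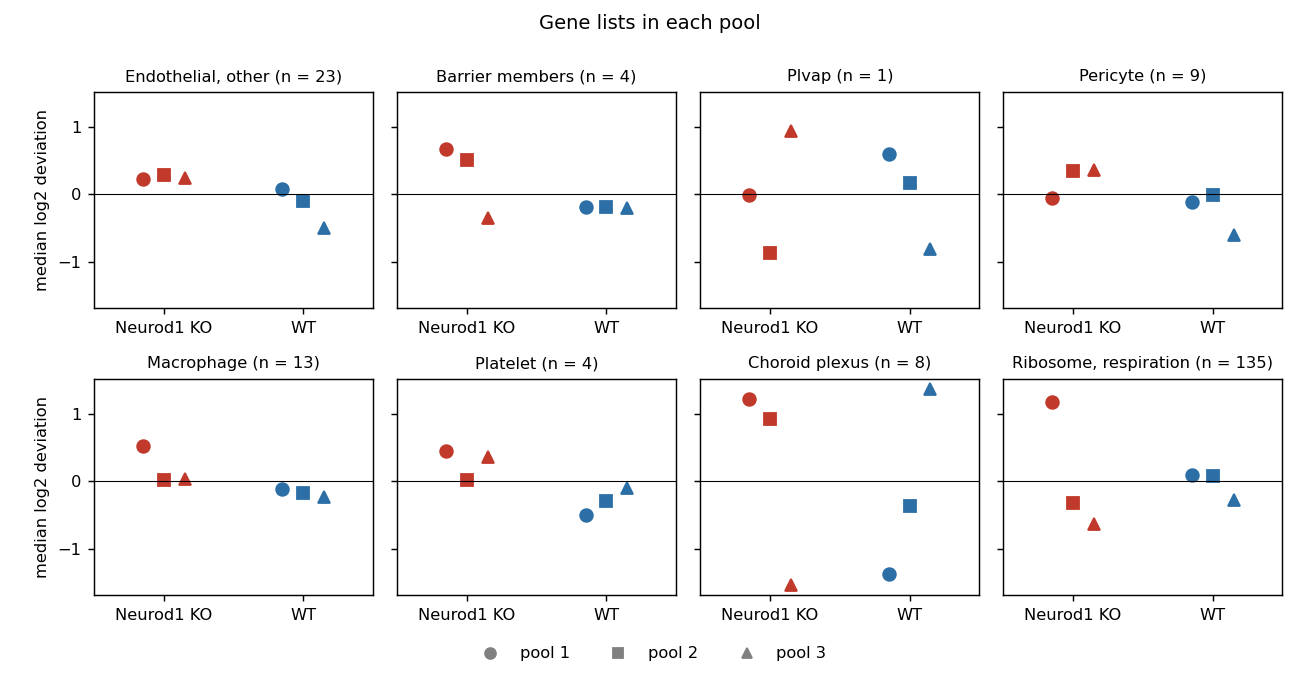
Median log2 deviation from the 6-pool mean of gene lists in each pool, knockout left in red and wildtype right in blue, with the symbol giving the pool number and n the genes tested. The median of the 23 endothelial genes other than barrier genes and Plvap is alike in the 3 knockout pools and spread in wildtype. Single genes such as Flt1 and Fli1 spread widely among knockout pools. The choroid plexus list separates knockout pool 3 and wildtype pool 1 from the other 4.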

How the data were processed

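Probe set signals of 6 arrays were taken from the deposited table. Per the labels' protocols, RNA of 3 pooled glands was amplified once, labelled with biotin and hybridised. The deposited values are linear intensity, and GCOS is named in the submitters' processing notes. Trimmed means of 499.3 to 499.5 in the authors' deposited intensity columns show a common scaling, except 499.0 for wildtype pool 2. The number of arrays limits the precision.

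Values were used as log2(signal + 38.6), the offset being the 20th percentile of all signals, which understates differences of dim genes. Probe sets whose mean log2 value was among the lowest 40% (signal under about 105) were left out. Genes were tested over the whole table in limma 3.58.1 under R 4.3.3 (lmFit, then eBayes with a trend, two-sided, Benjamini-Hochberg adjustment over 12797 genes, threshold 0.05), with 4 residual degrees of freedom. The fit was run on simulated data with the same spread for all genes and no effect of pool number. Genes here differ in spread and same-numbered pools correlate, so that run does not show how the fit performs on these data. An exact permutation test of 3 against 3 pools cannot go below p = 0.1 and is not given.

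Annotated symbols were matched by gene identifier to RefSeq, which changed 0 of them. Named genes were the members, Neurod1, and up to 2 genes with the smallest p of each vessel list; the other genes named, those of separated groups included, were chosen after their values were seen. The values of 1 gene that this rule names are not reported here. The members and lists were chosen with earlier results of these data known. Same-numbered pools share a label date, and their deviations correlated across genes by 0.32, 0.25 and 0.36, so the number entered an alternative fit as a block. The series text calls the samplings biologically separate. Other alternatives changed the offset, scaling, filter, probe sets, variance model, array weights and pools.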

Additional observations from a re-analysis of the deposited data

How the results depend on the processing

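In 1 fit, with array weights, 11 of the 28 endothelial genes were called, and 2932 genes in all, 1512 higher and 1420 lower. That fit rested largely on the pools numbered 2, with weights of 6.20 (knockout) and 7.05 (wildtype), while no other pool exceeded 0.541. The 10 genes higher in it were Abcb1a, Cd93, Erg, Esam, Fli1, Nos3, Ptprb, Robo4, Slc2a1 and Vwf, and the 1 lower was Plvap, at −0.87 (limma adjusted p = 0.0354, which over all alternatives lay between 0.0354 and 1.00). Eng was −0.0483, Kdr 0.00975, Sox17 0.0571 and Sox18 0.36 there, opposite in sign to the reported values, and the median endothelial difference was 0.45. In every other alternative 0 endothelial genes were called. The number of all genes called was 0 with no offset, with quantile normalization and without the pools low in choroid plexus transcripts, and 0 to 1 when pools were left out. With the pool number as a block it was 1, and the block changed no call.

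With arrays centred on their medians 2 endothelial genes did not overlap, and Pecam1 was −0.0896, Plvap −0.11, Slco1a4 −0.0572 and Tek −0.0522. Pecam1 was −0.00164 with no offset and −0.00456 after quantile normalization, and Slco1a4 was −0.0763 after the latter step. Without the pools low in choroid plexus transcripts 16 genes did not overlap, all with knockout higher, where 2 pools a genotype remained and 19.1% of all genes did so. The median was 0.50, against 0.0993 over all genes, and Fli1 was −0.21, Flt1 −0.66, Ptprb −0.24, Plvap −0.12 and Kdr 0.72. The cause was not tested.

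When 1 pool, or both pools of a number, were left out, 5 to 17 endothelial genes did not overlap, 0 to 1 of them with knockout lower. With fewer pools the shares over all genes were higher too, at 8.41% to 21.3% with knockout higher and 6.29% to 19.2% with knockout lower. Endothelial log2 differences were positive for 19 to 27 of the 28, where 48.1% to 57.8% of all genes were positive. An unadjusted limma p under 0.05 was reached by 0 to 6, and the share of all genes with such a p is not given for these fits. The endothelial median lay between 0.24 and 0.50 and that of barrier genes between 0.19 and 0.80. Single genes that changed sign ranged from −0.12 to 0.87 (Cd34), −0.15 to 0.44 (Cldn5), −0.20 to 0.54 (Eng), −0.16 to 0.78 (Fli1), −0.48 to 0.95 (Flt1), −0.11 to 0.61 (Icam2), −0.85 to 0.40 (Kdr) and −0.43 to 0.70 (Pecam1). The others ranged from −0.83 to 0.57 (Plvap), −0.22 to 0.89 (Ptprb), −1.24 to 1.80 (Slco1a4), −0.53 to 0.19 (Sox17), −0.60 to 0.24 (Sox18), −0.14 to 0.33 (Tek) and −0.30 to 0.81 (Tie1). A stricter filter left 21 endothelial genes, Robo4 not among them, and 4 of these did not overlap, namely Abcb1a, Emcn, Slc2a1 and Vwf. With 3 pools a genotype the median SE of a log2 difference over all genes was 0.34, and signals below about 105 were not tested.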
